A study of Arabidopsis thaliana with 24 samples.

Results

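F3H, TT5, AT1G06000 and ADT6 encode enzymes on the route from the shikimate pathway through phenylalanine to decorated flavonols. They were followed in Arabidopsis thaliana seedlings given or denied nitrogen and light. The probe sets were found by symbol or locus in the platform's gene table or in the study's supplementary lists, and 4 of the 22810 probe sets on the array were taken, 1 for each gene. The study asked how the transcription factor bZIP1 takes part in the response to nitrogen (N) and light (L). It compared the T-DNA insertion mutant bzip1-1 with WT-sib, a sibling without the insertion, both of Columbia parentage. Whole seedlings grown for 14 days on 0.5 mM KNO3 and 3 mM sucrose, in long days of 16 h light at 50 µE and 22 °C, were moved for 2 h to fresh plates at the start of their light period. RNA was hybridized to Affymetrix ATH1 arrays, 3 for each of 8 groups. The groups follow the sample titles and the study's methods, while the free-text description of every sample speaks of plants before the treatment, a conflict that the values used here do not settle.

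The groups of each genotype were -N-L, +N-L, -N+L and +N+L. +N plates held 20 mM KNO3 and 20 mM NH4NO3, and -N plates held KCl instead. +L plates stood in light, and -L plates were wrapped in foil. All 8 groups had grown on low nitrate with sucrose before the move, so -N is the absence of a fresh supply in plants raised on little nitrogen. The mutant is a single insertion line, and roots and shoots were pooled in the RNA. In such material, fewer cells of a type and less RNA per cell cannot be told apart.

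Plants make phenylalanine in the plastid from chorismate, the end product of the shikimate pathway, by way of arogenate. Phenylalanine ammonia-lyase then opens the phenylpropanoid pathway, which supplies both lignin and the flavonoids. Flavonols absorb ultraviolet light, are made in response to light in Arabidopsis leaves, and are stored after sugars have been attached to them.

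ADT6 (locus AT1G08250) is an arogenate dehydratase, the enzyme that makes phenylalanine from arogenate. TT5 (AT3G55120) is chalcone isomerase, which closes the ring that turns chalcone into flavanone. F3H (AT3G51240) is flavanone 3-hydroxylase, which makes the dihydroflavonols from which flavonols and anthocyanins are formed. AT1G06000 is UGT89C1, a glycosyltransferase that adds rhamnose at the 7 position of flavonols. Only AT1G06000 was named by the platform's table. The other names came from the study's lists of regulated genes, F3H from its light list and TT5 from its nitrogen list. ADT6 came from its list of genes affected by genotype, alone or in interaction with nitrogen, light or both. The light term of F3H, the nitrogen term of TT5, and the genotype term and genotype interactions of ADT6 are therefore not independent evidence for those effects. Probe sequences were not analysed here, and signal shared with related genes was not tested.

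The values are MAS 5.0 signals, a linear brightness per probe set that the authors had scaled to a trimmed mean of 500 on every array. The median signal of an array ran from 182 to 216 and its 10th percentile from 10.5 to 18.7. No table used here names the probe set of bZIP1. The unnamed probe set with the lowest genotype term of all read 56.5 on the array labelled WT-sib -N+L number 1 and 471 on the array labelled bzip1-1 -N+L number 1, whereas the other 5 light arrays of each genotype ran from 519 to 6034 in WT-sib and from 68.6 to 123 in bzip1-1. These 2 arrays therefore go against their genotype labels in that transcript, and genotype results of ADT6 on the log2 scale are also given without them below. Levels of 3 measured leaf photosynthesis markers of 6 listed, RCA, SBPASE and PRK, summed to 35304 to 58997 on arrays in the dark and to 32575 to 60679 in light. The 2 measured root markers of 6, PYK10 and EXPA7, summed to 4133 to 14008 and 7267 to 14769. None of these 5 passed the test for light or nitrogen. EXPA7 reached only 252 in the dark and 319 in light, so PYK10 set most of the root sums. The light differences of PYK10 and EXPA7 were 0.42 and 0.21 on the log2 scale. PYK10 was higher in light in 11 of 12 pairs of arrays and EXPA7 in 7 of 12. The 1 measured seed coat marker of 2 listed apart from the pathway genes, MUM4, was higher in light by 0.94 (SE 0.16) on the log2 scale, where it passed. BAN, a seed coat gene counted below with the flavonoid enzymes, was at -0.21 and did not pass. It was higher in light in 4 of 12 pairs of arrays, at very dim signal. The part of either gene in the values below was not tested.

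All 4 genes had higher signal in light than in the dark, in both genotypes and at both nitrogen states. Averaged over the other factors, light raised ADT6 by 3.34-fold, TT5 by 4.64-fold, F3H by 11.3-fold and AT1G06000 by 41.6-fold, the last against dim dark signal, so that adding 32 to every signal before taking logs gave 24.1-fold. The light arrays lay above the dark arrays without overlap for each of the 4 genes, 12 against 12, and 1.61% of all 22746 probe sets tested did so. Each passed the test for the light term, the mean log2 signal in light minus that in the dark, with p adjusted over all probe sets below 0.05, which 24.9% of all probe sets did, 13.2% in the upward direction. SE stands for the standard error of such a log2 difference, in which 1 unit is a doubling.

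ADT6 signal in WT-sib was 242, 415 and 284 in -N-L and 343, 157 and 163 in +N-L, for replicate numbers 1, 2 and 3. It was 722, 783 and 1122 in WT-sib -N+L and 578, 492 and 696 in WT-sib +N+L. In bzip1-1 it was 354, 250 and 266 in -N-L, 374, 208 and 195 in +N-L, 1203, 1132 and 997 in -N+L, and 1135, 1088 and 817 in +N+L. The highest dark array, at 415, was below the lowest light array, at 492. The log2 difference between light and dark was 1.74 (SE 0.15, adjusted p = 2.1e-08, limma), the smallest of the 4 genes.

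TT5 signal in WT-sib was 634, 556 and 412 in -N-L, 552, 343 and 539 in +N-L, 2746, 3158 and 2412 in -N+L, and 2096, 2292 and 1604 in +N+L. In bzip1-1 it was 524, 636 and 535 in -N-L, 437, 390 and 638 in +N-L, 2283, 2925 and 2607 in -N+L, and 1996, 2651 and 1913 in +N+L. TT5 had the smallest standard error of the 4 genes, 0.11 on the log2 scale. Its light term was 2.21 (adjusted p = 2.1e-11, limma).

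F3H signal in WT-sib was 992, 313 and 410 in -N-L, 730, 416 and 462 in +N-L, 6984, 7090 and 5904 in -N+L, and 5921, 5348 and 2713 in +N+L. In bzip1-1 it was 698, 483 and 288 in -N-L, 645, 395 and 272 in +N-L, 6622, 7151 and 3802 in -N+L, and 5669, 5544 and 3545 in +N+L. The lowest light array was number 3 of WT-sib +N+L, still above every dark array. The light term of F3H was 3.49 (SE 0.21, adjusted p = 2.0e-10, limma), rank 21 of 22746 among rises and 40 by absolute size.

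AT1G06000 signal in WT-sib was 201, 131 and 11.2 in -N-L, 260, 20.3 and 101 in +N-L, 3348, 4017 and 2473 in -N+L, and 3180, 2668 and 1028 in +N+L. In bzip1-1 it was 109, 11.1 and 24.04 in -N-L, 319, 173 and 21.3 in +N-L, 4031, 3892 and 1490 in -N+L, and 3297, 3493 and 1882 in +N+L. The dark arrays spread widely, and 7 of 12 lay below 123, the signal at the 40th percentile of all probe sets. On 2 of the 12 the signal was below the 10th percentile of its own array. The light term was 5.38 (SE 0.54, adjusted p = 1.9e-07, limma), the highest rise of all 22746 probe sets, and 4.59 (SE 0.36) with the offset of 32, where it was again rank 1 among rises. With dark signals this dim, the size of the rise is uncertain.

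**Figure D1:**
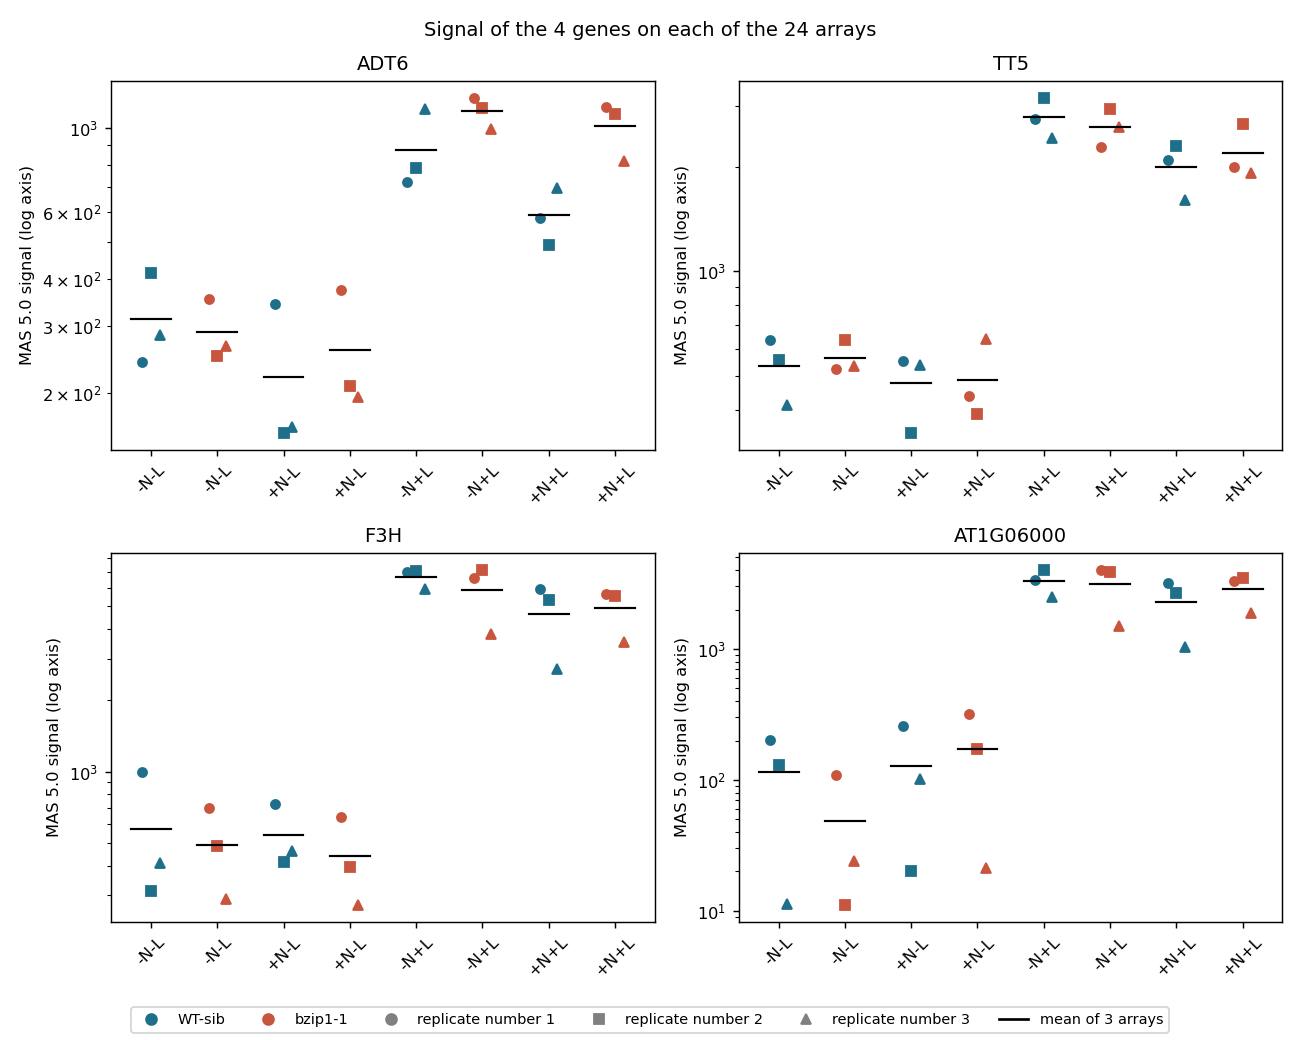
MAS 5.0 signal on a logarithmic axis for each of the 24 arrays, grouped on the x axis by treatment, with WT-sib in blue, bzip1-1 in red, marker shape for replicate number and a black line at the mean of 3 arrays. For each gene the 12 light arrays on the right lie above the 12 dark arrays on the left, and AT1G06000 in the dark spreads from 11.1 to 319.

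The light response was also tested in each background apart. In WT-sib without nitrogen the log2 response was 1.49 (SE 0.30) for ADT6, 2.39 (SE 0.22) for TT5, 3.72 (SE 0.42) for F3H and 5.59 (SE 1.08) for AT1G06000. With nitrogen the WT-sib responses were 1.498, 2.08, 3.09 and 4.67, in the same gene order and with the same standard errors. The responses of bzip1-1 were 1.95, 2.20, 3.62 and 6.54 without nitrogen and 2.02, 2.18, 3.55 and 4.72 with it. All 16 of these responses passed the test (limma, highest adjusted p 0.014), where 2.88% and 3.17% of all probe sets passed upward in WT-sib without and with nitrogen, and 4.01% and 1.89% in bzip1-1. The 2 responses of AT1G06000 with nitrogen were less secure: leaving out 1 array gave adjusted p up to 0.096 in WT-sib, without +N-L number 2, and up to 0.105 in bzip1-1, without +N-L number 3.

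Within replicate numbers, the light response of F3H was 3.05, 3.97 and 3.46 on the log2 scale for numbers 1, 2 and 3. TT5 gave 2.09, 2.55 and 2.00, and ADT6 gave 1.42, 1.78 and 2.01. AT1G06000 gave 4.06, 6.19 and 5.89. Light exceeded dark in 12 of 12 pairs of the same genotype, nitrogen state and number for each gene, a count not made over all probe sets.

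Ordered by mean signal, the 4 light groups stood above the 4 dark groups for every gene. F3H ran from 6659 ± 656 (SD, n = 3) in WT-sib -N+L through 5859 ± 1800 in bzip1-1 -N+L and 4919 ± 1192 in bzip1-1 +N+L to 4660 ± 1711 in WT-sib +N+L, and then to 572 ± 367 in WT-sib -N-L. TT5 had the same order among the light groups, from 2772 ± 374 through 2605 ± 321 and 2187 ± 404 to 1997 ± 355. AT1G06000 ran 3279 ± 774 in WT-sib -N+L, 3138 ± 1429 in bzip1-1 -N+L, 2891 ± 879 in bzip1-1 +N+L and 2292 ± 1124 in WT-sib +N+L. Neighbours among the light groups overlapped for these 3 genes. ADT6 had another order, with 1110 ± 105 in bzip1-1 -N+L, 1013 ± 172 in bzip1-1 +N+L, 876 ± 215 in WT-sib -N+L and 588 ± 102 in WT-sib +N+L, and the last pair did not overlap.

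In the dark F3H means ran from 437 ± 190 in bzip1-1 +N-L to the 572 of WT-sib -N-L, and TT5 means from 478 ± 117 in WT-sib +N-L to 565 ± 62 in bzip1-1 -N-L. ADT6 ran from 221 ± 106 in WT-sib +N-L to 313 ± 90 in WT-sib -N-L. AT1G06000 ran from 48.2 ± 53.5 in bzip1-1 -N-L to 171 ± 149 in bzip1-1 +N-L, with standard deviations about as large as the means. Neighbouring dark groups overlapped for each gene.

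Supplied nitrogen was tested next. Averaged over light and genotype, the nitrogen term was -0.37 (SE 0.15) for ADT6, -0.29 (SE 0.11) for TT5, -0.23 (SE 0.21) for F3H and 0.34 (SE 0.54) for AT1G06000 on the log2 scale. None passed the test (limma, adjusted p 0.40, 0.37, 0.85 and 0.94), which 0.954% of all probe sets passed. Unadjusted p was 0.021 for ADT6 and 0.018 for TT5. For ADT6, TT5 and F3H the +N array was the lower one in 10 of 12 pairs each, and for AT1G06000 in 7 of 12. Such pairs were not counted over all probe sets, whose median nitrogen term was itself -0.04, so these counts are a description. The 95% intervals were -0.68 to -0.06 for ADT6, -0.52 to -0.06 for TT5, -0.67 to 0.20 for F3H and -0.78 to 1.47 for AT1G06000.

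In WT-sib in light, the -N arrays of TT5, 2412 to 3158, lay above the +N arrays, 1604 to 2292, and those of ADT6, 722 to 1122, lay above 492 to 696. Among all probe sets 5.51% had -N above +N there without overlap. These -N arrays include WT-sib -N+L number 1, which went against its genotype label above. TT5 read 2283 on the array labelled bzip1-1 -N+L number 1, below the highest WT-sib +N array in light, at 2292. The part of these labels in the separation was not tested. F3H and AT1G06000 overlapped in WT-sib, and each of the 4 genes overlapped in bzip1-1, where 5.64% of all probe sets had that order. The log2 responses to nitrogen in WT-sib in light were -0.48 (SE 0.22) for TT5 and -0.56 (SE 0.30) for ADT6, and neither passed (limma, adjusted p 0.82 and 0.88), as 0.00879% of all probe sets did downward. Without both -N+L arrays of number 1 these responses were -0.48 and -0.69.

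The light by nitrogen term compares the response to nitrogen in light with that in the dark. It was 0.04 (SE 0.30) for ADT6, -0.17 (SE 0.22) for TT5, -0.35 (SE 0.42) for F3H and -1.37 (SE 1.08) for AT1G06000. None passed (limma, adjusted p 1.00 for each), and 0.0396% of all probe sets did. The intervals reached from -3.61 to 0.87 for AT1G06000 and from -0.58 to 0.66 for ADT6.

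With both signals given, +N+L against -N-L, F3H was higher by 3.13 (SE 0.42) in WT-sib and 3.39 in bzip1-1. TT5 was higher by 1.91 (SE 0.22) and 1.94, and AT1G06000 by 4.95 (SE 1.08) and 6.50. These 6 contrasts passed (limma, highest adjusted p 0.0065), where 3.52% of all probe sets passed upward in WT-sib and 3.82% in bzip1-1. That of AT1G06000 in WT-sib was 3.66 (limma, adjusted p = 0.054) without WT-sib -N-L number 3. ADT6 was higher by 1.81 (SE 0.30, adjusted p = 5.9e-04) in bzip1-1. In WT-sib its difference was 0.93 (SE 0.30, adjusted p = 0.063).

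**Figure D2:**
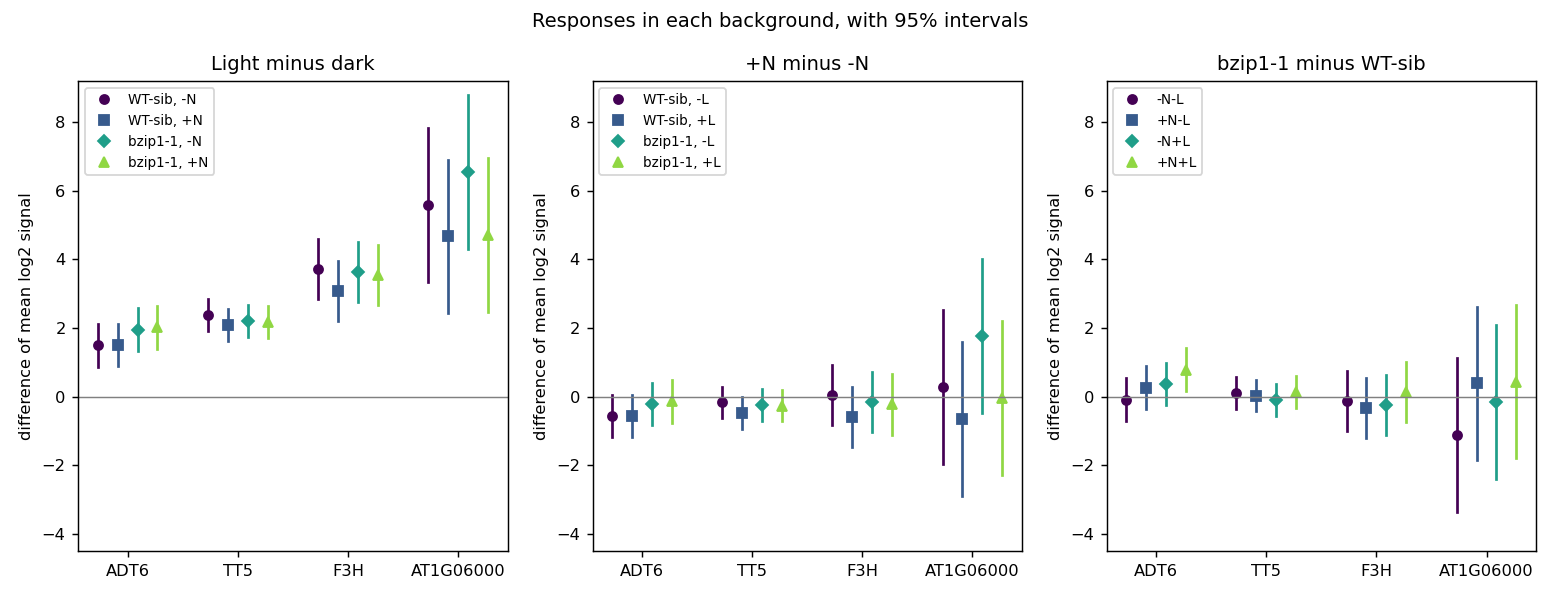
Differences of mean log2 signal (y axis) for the 4 genes in each background, with 95% intervals from the limma fit: light minus dark on the left, +N minus -N in the middle and bzip1-1 minus WT-sib on the right. The intervals on the left all lie above 0, and those of AT1G06000 are the widest in each panel.

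The genotype term, bzip1-1 minus WT-sib, was small for the flavonoid enzymes. It was -0.14 (SE 0.21) for F3H, 0.04 (SE 0.11) for TT5 and -0.12 (SE 0.54) for AT1G06000, with 95% intervals of -0.58 to 0.29, -0.19 to 0.27 and -1.24 to 1.01. ADT6 was 0.33 (SE 0.15, interval 0.02 to 0.64), with an unadjusted p of 0.038. None of the 4 passed after adjustment (limma, adjusted p 1.00), and 0.00879% of all probe sets did.

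In the dark the 6 ADT6 values of WT-sib ran from 157 to 415 with a median of 263, and those of bzip1-1 from 195 to 374 with a median of 258. In light WT-sib ran from 492 to 1122 with a median of 709, and bzip1-1 from 817 to 1203 with a median of 1110. In +N+L the 3 arrays of bzip1-1, 817 to 1135, lay above the 3 of WT-sib, 492 to 696, and 3.69% of all probe sets showed that order. The log2 difference was 0.78 (SE 0.30) in +N+L, 0.37 (SE 0.30) in -N+L, 0.26 (SE 0.30) in +N-L and -0.09 (SE 0.30) in -N-L, and none passed (limma, adjusted p 1.00). Over both nitrogen states in light it was 0.57 (SE 0.21, unadjusted p = 0.013, limma), and 0% of all probe sets passed after adjustment. In -N+L the groups of ADT6 overlapped, where 2.34% of all probe sets did not.

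The light by genotype term of ADT6, the light response of bzip1-1 minus that of WT-sib, was 0.49 (SE 0.30, interval -0.13 to 1.11). Its nitrogen by genotype term was 0.39 (SE 0.30). In a 3-factor fit with the study's factors and its unadjusted threshold of 0.01, run here on the linear signal of all probe sets without the study's filter on detection calls, ADT6 passed for genotype, as 0.673% of all probe sets did, and for light by genotype, as 0.259% did. TT5 passed there for nitrogen, as 3.51% did. None of these passed after adjustment, and this linear fit was not repeated without the -N+L arrays of number 1. ADT6 was named through the study's list for genotype and its interactions, and TT5 through its nitrogen list. By replicate number, the genotype difference of ADT6 was 0.60, 0.34 and 0.06 on the log2 scale.

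ADT6 read 722 on the -N+L number 1 array labelled WT-sib and 1203 on that labelled bzip1-1. Without both, its genotype term was 0.28 (unadjusted p = 0.096, limma), its difference in light 0.48 (unadjusted p = 0.061), its difference in -N+L 0.18 and its light by genotype term 0.40. Its nitrogen by genotype term was 0.48 without them, against 0.39 with them. The difference in +N+L, which does not use these arrays, stayed at 0.78. The spike-in control DapX-3 was lower in bzip1-1 in 2 of the numbers, at 202 to 274 in WT-sib and 156 to 170 in bzip1-1 in number 2, and at 1102 to 1498 and 722 to 987 in number 3, while DapX-5 was lower in bzip1-1 in number 1, at 621 to 1007 in WT-sib and 355 to 445 in bzip1-1, and in number 3, and their part in the ADT6 values was not tested.

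Among the flavonoid enzymes, light by genotype was 0.18 (SE 0.42) for F3H, -0.04 (SE 0.22) for TT5 and 0.50 (SE 1.08) for AT1G06000. Nitrogen by genotype was 0.08, 0.08 and 1.05, with the same standard errors. The 3-way term was 0.57 (SE 0.84) for F3H, 0.29 (SE 0.44) for TT5, -0.89 (SE 2.15) for AT1G06000 and 0.06 (SE 0.59) for ADT6. No interaction with genotype passed for these genes or for any of the 22746 probe sets (limma).

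The other genes of the route were taken from lists of the pathway, of which 34 of 84 genes could be paired with a probe set here. In light 22 of the 34 rose, 4 fell and 8 did not pass, where 13.2% of all probe sets rose and 11.7% fell. Their median light term was 0.80, against 0.0035 over all probe sets. Names from the study's lists are selected for regulation and accounted for 18 of the 34, with 13 that rose and 4 that fell. Of the 16 named by the platform's table, 9 rose, 0 fell and 7 did not pass, with a median of 0.57.

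Upstream of phenylalanine, the 4 measured shikimate pathway genes rose, where 13.2% of all probe sets did. DHS1, a DAHP synthase that commits carbon to the pathway, rose by 1.63 (SE 0.13), from 419 to 1051 in the dark to 1491 to 2667 in light. AT1G22410, another DAHP synthase, rose by 0.88, the chorismate synthase EMB1144 by 0.52 and the dehydroquinate synthase AT5G66120 by 0.39. Their median was 0.70. DHS1 and EMB1144 were named only through the study's light list, so their rise is not independent evidence.

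Of the 5 measured genes beside ADT6 in phenylalanine and tyrosine synthesis, 4 rose, where 13.2% of all probe sets did. The arogenate dehydratases ADT1 and PD1, which is ADT3, rose by 1.25 (SE 0.15) and 0.93 (SE 0.15), and the other 3 members of that family were not analysed here. ADT1 ran from 112 to 415 in the dark and from 458 to 669 in light, without overlap, as ADT6 did. AAT, the prephenate aminotransferase that makes arogenate, rose by 0.85. ADT1, PD1 and AAT were named only through the study's light list, so their rise is not independent evidence. On the branch to tyrosine the arogenate dehydrogenase AT1G15710 rose by 0.72, and AT5G34930 was at -0.10 (SE 0.15). The single measured gene of the tryptophan branch, the indole-3-glycerol phosphate synthase AT2G04400, rose by 0.43 (SE 0.14), but leaving out 1 array gave adjusted p up to 0.052.

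In the general phenylpropanoid pathway 3 of 4 measured genes rose and 1 fell, where 13.2% of all probe sets rose and 11.7% fell. All 4 were named only through the study's lists, PAL1, PAL3 and 4CL1 through its light list. These counts are therefore not independent evidence for a light response. PAL1, a phenylalanine ammonia-lyase, rose by 1.89 (SE 0.30), 4CL1, a 4-coumarate:CoA ligase, by 1.35 (SE 0.22), and C4H, cinnamate 4-hydroxylase, by 0.78 (SE 0.11). PAL3, of the same family as PAL1, fell by 0.68 on the log2 scale (SE 0.14). Both measured monolignol genes, HCT and ATCAD4, rose, by 1.01 and 0.82, and ATCAD4 was named only through the study's lists, its light list included.

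Among the flavonoid enzymes, CHIL, a chalcone isomerase-like protein that assists chalcone synthesis, rose by 2.74 (SE 0.35), from 20.2 to 415 in the dark to 749 to 1500 in light. The chalcone synthase and flavonol synthase genes were not analysed here. Of the late enzymes, GSTF12, a glutathione transferase of anthocyanin transport, rose by 2.04 (SE 0.42) at low signal. It ran from 8.44 to 86.9 in the dark and from 64.9 to 570 in light, with overlap. GSTF12 was named only through the study's light list. DFR, dihydroflavonol 4-reductase at the entry to anthocyanins, was at 0.79 (SE 0.29, limma, adjusted p = 0.051), and BAN, anthocyanidin reductase of the seed coat, was at -0.21 (SE 0.33) with a mean log2 signal at percentile 3.61 of all probe sets.

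Of the 6 measured decoration genes beside AT1G06000, 3 rose, where 13.2% of all probe sets did. UGT78D1, a flavonol 3-O-rhamnosyltransferase, rose by 3.33 (SE 0.13), rank 27 among rises, from 88.6 to 234 in the dark to 1054 to 1966 in light. UGT78D2, a flavonoid 3-O-glucosyltransferase, rose by 1.85 (SE 0.18). Of the genes known for anthocyanins, AT4G14090 rose by 2.13 (SE 0.49) at low signal, 4.06 to 27.0 in the dark and 12.4 to 260 in light, with responses of 4.09, 0.48 and 1.81 in numbers 1, 2 and 3, and UF3GT and AT5MAT were at 0.39 (SE 0.34) and 0.09 (SE 0.25). UGT78D3, a flavonol arabinosyltransferase, was at -0.08 (SE 0.44) with a mean log2 signal at percentile 6.01.

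**Figure D3:**
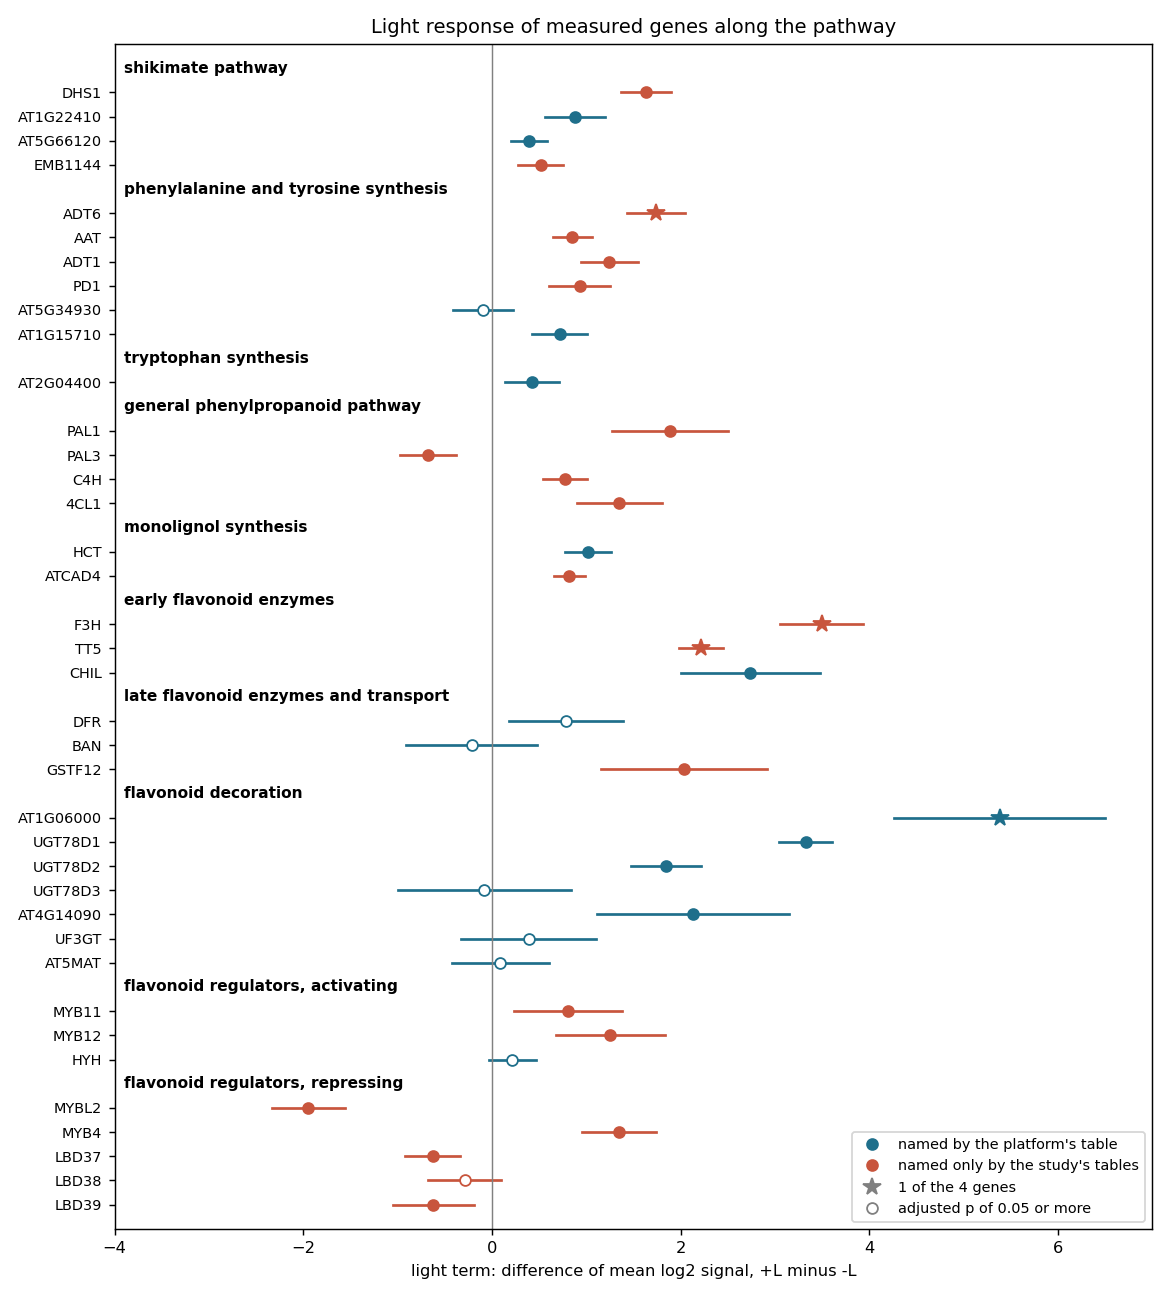
Light term, as a difference of mean log2 signal with its 95% interval (x axis), for the 4 genes (stars) and the 34 other measured genes in order of the pathway (y axis). Blue marks names from the platform's table, red names from the study's lists, and open symbols did not pass. F3H, AT1G06000 and UGT78D1 have the highest values, and MYBL2 the lowest at -1.95.

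The regulators of the pathway moved in both directions in light. Of the activators, MYB12 and MYB11, which switch on flavonol genes, rose by 1.25 (SE 0.28) and 0.80 (SE 0.28), both at low signal, and HYH, a light-signalling bZIP factor, was at 0.21 (SE 0.12). MYB11 did not pass in 14 of 24 fits with 1 array left out. Of the 5 measured repressors 3 fell in light, where 11.7% of all probe sets fell. LBD39 missed the threshold in 9 of 24 fits with 1 array left out. All 5 were named only through the study's lists, MYBL2 and MYB4 through its light list, as MYB12 was. The light calls of MYBL2, MYB4 and MYB12 are therefore not independent evidence. MYBL2, which represses flavonoid genes, fell by 1.95 on the log2 scale (SE 0.19), from 4383 to 10426 in the dark to 782 to 2554 in light. MYB4, a repressor of phenylpropanoid genes, rose by 1.35 (SE 0.19).

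LBD37, LBD38 and LBD39, known as nitrate-induced repressors of anthocyanin genes, were the pathway genes that rose with nitrogen, 3 of 34, where 0.699% of all probe sets rose. All 3 were named through the study's nitrogen list, so their rise is not independent evidence. In light without nitrogen LBD37 had signals of 509, 383 and 596 in WT-sib and 396, 358 and 549 in bzip1-1, and with nitrogen 2934, 1619 and 1624 in WT-sib and 1733, 1530 and 1970 in bzip1-1. LBD38 in light ran from 473 to 1224 without nitrogen and from 1321 to 2942 with it, and LBD39 from 92.1 to 283 and from 929 to 1282. The +N arrays lay above the -N arrays in light for all 3, 6 against 6, and 0.849% of all probe sets did so.

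The nitrogen term was 1.30 (SE 0.14) for LBD37, 0.93 (SE 0.19) for LBD38 and 1.37 (SE 0.21) for LBD39 (limma, adjusted p 2.4e-05, 0.014 and 9.8e-04), with +N above -N in 12 of 12 pairs for each. These pairs were not counted over all probe sets. In light the response was 2.02, 1.17 and 2.26, and all passed, where 0.572% of all probe sets rose; that of LBD38 missed the threshold in 13 of 24 fits with 1 array left out. In the dark it was 0.58, 0.69 and 0.49, and none passed, where 0.0572% rose and 0.29% of all probe sets had +N above -N without overlap. The light by nitrogen terms were 1.44 (SE 0.28) for LBD37, 0.48 (SE 0.37) for LBD38 and 1.77 (SE 0.41) for LBD39, with adjusted p of 0.076, 1.00 and 0.23. The fall of LBD37 and LBD39 in light, -0.63 and -0.62 on average, was seen without nitrogen, at -1.35 and -1.51, where 7.56% of all probe sets fell, while with nitrogen the values were 0.09 and 0.26.

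**Figure D4:**
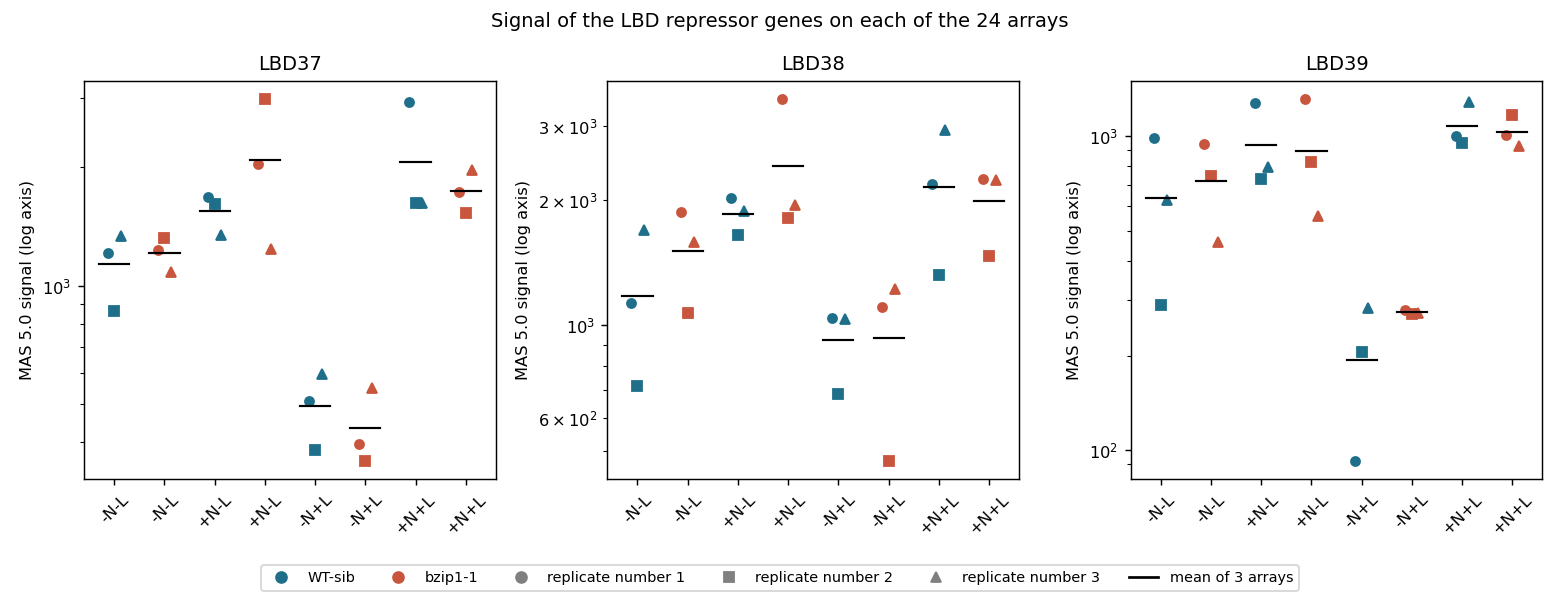
MAS 5.0 signal on a logarithmic axis for LBD37, LBD38 and LBD39 on each array, by treatment on the x axis, with WT-sib in blue, bzip1-1 in red, marker shape for replicate number and a black line at the mean of 3 arrays. The -N+L groups are the lowest for each gene, and their 6 arrays lie below the 6 of +N+L.

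Of the remaining 31 pathway genes none rose and 1 fell with nitrogen, ATCAD4, a cinnamyl alcohol dehydrogenase of lignin synthesis, by 0.35 on the log2 scale (SE 0.08, limma, adjusted p = 0.032, above the threshold in 14 of 24 fits with 1 array left out), where 0.255% of all probe sets fell. C4H and 4CL1 were at -0.25 (SE 0.11) and -0.47 (SE 0.22). ATCAD4 and C4H were named through lists of the study that include its nitrogen list, so their values are not independent evidence for nitrogen. No pathway gene passed for genotype or for light by nitrogen. The median nitrogen term of the 34 genes was -0.06, against -0.04 over all probe sets.

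In light, number 3 was the lowest array in 4 of 4 groups for F3H and AT1G06000 and in 3 of 4 for TT5, and 7.16% of all probe sets had number 3 lowest in all 4. In the dark, number 1 was the highest in 4 of 4 groups for F3H and AT1G06000, which 5.55% of all probe sets showed. TT5 departed from this, with number 1 highest in 2 of 4 dark groups and number 2 highest in 4 of 4 light groups, as 4.75% of all probe sets were. ADT6 had no such order in light, with number 3 highest in the WT-sib groups and lowest in the bzip1-1 groups. The spike-in control DapX-3, which is added to the sample and not made by the plant, ran from 1608 to 2282 in number 1, 156 to 274 in number 2 and 722 to 1498 in number 3, and its part in these orders was not tested.

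Over the 12 light arrays, log2 signal of F3H and AT1G06000 had a correlation of 0.95, F3H and TT5 of 0.72, and TT5 and AT1G06000 of 0.63. ADT6 had correlations of 0.20 to 0.24 with the other genes in light. Over the 12 dark arrays the values were lower among the flavonoid genes, at 0.56, 0.12 and 0.03. Those of ADT6 in the dark were 0.25 with F3H, 0.20 with TT5 and 0.39 with AT1G06000. These arrays share replicate numbers and treatments, so the values are a description.

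**Figure D5:**
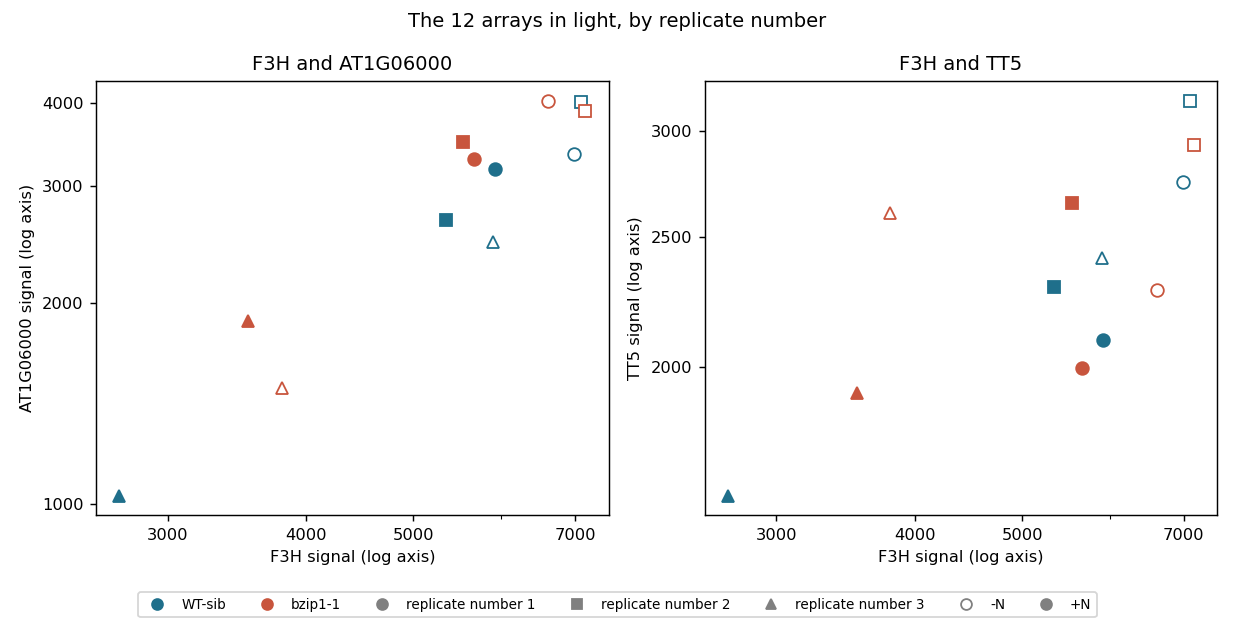
F3H signal (x axis) against AT1G06000 and TT5 signal (y axes), all on logarithmic axes, for the 12 arrays in light, with WT-sib in blue, bzip1-1 in red, open symbols for -N, filled for +N and marker shape for replicate number. The triangles of number 3 include the lowest F3H and AT1G06000 values, down to 2713 and 1028.

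Over all 24 arrays the genes most like each member were listed by the correlation of log2 signal among 8087 probe sets with a single named locus and a mean above the 40th percentile. Dark and light arrays both enter these correlations, which are a description. Some candidates were named only through the study's lists, and such names are selected for regulation. Among the genes given here these were AMT1;2, VTC2, AT5G64170, AGP15, ProT3, MIPS2 and GLR1.1. For F3H the closest were AT4G36640 (0.98) and the ammonium transporter AMT1;2 (0.97), whose correlation was also 0.90 among light arrays and 0.86 among dark arrays. AT5G45950, AT3G44450 and AT1G45688 followed at 0.97 each. For TT5 they were AT3G44450, TBL26, the ascorbate synthesis gene VTC2, AT5G55620 and AT5G64170, at 0.96 to 0.97.

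For AT1G06000 the closest was GT72B1, itself a glycosyltransferase (0.97), followed by AT3G09440, the arabinogalactan protein AGP15, AT4G36640 and AT2G05920 at 0.96. AT4G36640 was on the lists of both F3H and AT1G06000, and AT3G44450 on those of F3H and TT5. For ADT6 the values were lower, at 0.91 to 0.92, for the proline transporter ProT3, AT4G19450, the inositol phosphate synthase MIPS2, AT4G32240 and the glutamate receptor GLR1.1. None of the genes closest to ADT6 was on the list of a flavonoid enzyme.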

How the data were processed

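Signal was measured on 24 Affymetrix ATH1 arrays of whole seedlings, 3 biological replicates for each of 8 groups. The deposited values are MAS 5.0 signal intensity on a linear scale, scaled by the authors to a trimmed mean of 500 per array, without detection calls, so the methods' filter on those calls was not applied. Arrays have no read depth, and precision rests on having only 3 arrays in a group.

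The 64 control probe sets were set aside. The log2 signal of the other 22746 was fitted with limma 3.58.1 in R 4.3.3 (trend in the prior variance, no offset), with N, L, genotype and their products. P-values are two-sided and adjusted together (Benjamini-Hochberg, 22746 probe sets) and called below 0.05. The fit was tested on simulated data. Figures were drawn with matplotlib 3.10.9.

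Names came from the platform's table (13436 probe sets with a locus) and, for 876 more, from the study's lists of regulated genes, of which the light list is held only in part. Symbols follow the TAIR10.1 annotation. The 4 genes, the pathway lists and the tests were chosen with earlier results of these data known. From each list the text names up to 4 genes per term by size among those that passed, and the remaining genes it names were added after their values were seen. Likeness names the 5 highest correlations per gene. Alternatives were a replicate block, quantile normalization, median scaling, adding 32 to the signal, removing probe sets under the 40th percentile of mean signal, no variance trend, plain ANOVA on linear and log2 signal, each array left out, both -N+L arrays of number 1 left out, and each genotype alone.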

Additional observations from a re-analysis of the deposited data

How the results depend on the processing

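The light terms of F3H, TT5, AT1G06000 and ADT6 kept their direction and passed under every alternative and in each of the 24 fits without 1 array, and no nitrogen, genotype or light by nitrogen term of these genes passed under any. Some terms that did not pass changed sign, and not all lay near 0, as AT1G06000 N*L*G was at -0.89 (SE 2.15). With plain ANOVA on linear signal these were AT1G06000 N (adjusted p 0.896), AT1G06000 G (1.00), ADT6 L*N (0.994), F3H L*G (1.00), AT1G06000 N*L*G (1.00) and UGT78D3 L (0.896). An offset of 32 turned UGT78D3 L (0.932), and leaving out both -N+L arrays of number 1 turned TT5 L*G (1.00), UF3GT L (0.896) and AT5MAT L (0.950). With 1 array left out, signs turned in some fits for the terms that follow. Brackets give the range of adjusted p over all 24 limma fits, including those that did not turn. The terms were TT5 G (0.999 to 1.00), AT1G06000 G (0.999 to 1.00), ADT6 L*N (0.989 to 1.00), F3H N*G (0.968 to 1.00), F3H L*G (1.00 to 1.00), TT5 N*G (0.965 to 1.00), TT5 L*G (1.00 to 1.00), AT1G06000 L*G (1.00 to 1.00), AT1G06000 N*L*G (1.00 to 1.00), ADT6 N*L*G (1.00 to 1.00), UGT78D3 L (0.773 to 0.998) and AT5MAT L (0.433 to 0.981). AT5MAT L turned in 2 of these fits, at 0.974 and 0.972. The cause of the turned signs was not tested.

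The count of pathway genes that fell in light was 4, 3 to 5 in 8 other settings, and 2 with plain ANOVA on linear signal. There LBD37 L (adjusted p 0.242) and LBD39 L (0.323) missed the threshold. LBD39 L also missed it with ANOVA on log2 signal (0.055) and, in limma, without both -N+L arrays of number 1 (0.072). The count that fell with nitrogen was 1, 0 with median scaling or without the variance trend, and 0 to 1 with 1 array left out. On linear signal AT1G06000 L in WT-sib +N (adjusted p 0.060), ADT6 L in WT-sib +N (0.055) and AT1G06000 +N+L against -N-L in WT-sib (0.052) missed the threshold. So did AT4G14090 L (0.076), LBD38 N (0.059) and LBD38 N in +L (0.166), the last also with ANOVA on log2 signal (0.106) and without the variance trend (0.085). ADT6 +N+L against -N-L in WT-sib passed with the replicate block (0.031) and without dim probe sets (0.042). DFR L passed with both (0.023 and 0.035), and LBD37 L*N with the replicate block (0.032) and median scaling (0.042).

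Deviations from the group mean correlated between arrays of the same replicate number, with a median of 0.25 over 84 pairs and 65 above 0.1, against -0.08 over 168 pairs of different numbers and 3 above 0.1, so arrays of a number shared deviations. The lowest same-number pair was at -0.07. The study describes 3 independent experiments, but no label ties the numbers to them. The main tests therefore did not use the numbers, and the counts of pairs given above are a description. As a block the numbers raised the probe sets called from 5660 to 7238 for light and from 217 to 652 for nitrogen, and changed no call in the main terms of the 4 genes. With it LBD38 also passed for L (0.046) and for N in -L (0.048). Dim signal limited AT1G06000 in the dark.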
